A study of Sus scrofa with 6 samples.

Results

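The genes of the aryl hydrocarbon receptor (AHR) pathway and the CYP1 enzymes were followed in the livers of ASGR1+/- and WT Bama minipigs. They were taken from the deposited expression table by gene symbol from a list of 8 genes. Of these, 7 were in the table of 17109 genes, namely CYP1A1, CYP1A2, AHR, AHRR, ARNT, NQO1 and TIPARP, and CYP1B1 was not analysed here. The selection went by symbol, with no threshold on a measured value, but earlier results of these livers were known when the list was drawn up. CYP1A2 is also among the genes that the study itself chose to show from these livers, so its direction here is not independent of that choice.

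The tested livers came from ASGR1+/- pigs (S03, S04 and S05) and the others from WT pigs (WT1, WT2 and WT3), with 1 RNA library per animal. The ASGR1+/- pigs carried 1 ASGR1 allele from which a CRISPR/Cas9 deletion had removed a stretch running from an intron into the next exon. The line went back to piglets cloned from edited fetal fibroblasts of 1 biallelic and 1 monoallelic colony. All 6 pigs were fasted overnight before the liver was taken, and the pigs of the study were a few months old and matched in age within an experiment. S03 is given apart because the study left it out after a principal-component analysis of these same libraries. S03 also differed in Y-linked reads, which summed to 45.3 CPM there, against 436 to 469 CPM in the other 5 libraries, where CPM is the count scaled to the library total. By the study's methods its pigs were male apart from 1 F1 animal, which the labels do not tie to S03.

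Library totals were close, at 15397768 to 16237732 estimated counts. ASGR1 was listed at 370 TPM in S04, 367 TPM in S05 and 485 TPM in S03, against 416, 452 and 305 TPM in WT1, WT2 and WT3, where TPM is the count per gene length scaled to a fixed sum per library. Its groups overlapped (log2 fold change -0.18 for S04 and S05 relative to WT, standard error 0.20, edgeR adjusted p = 0.652), and counts over the whole gene do not check a partial deletion of 1 allele. Liver markers were abundant in all 6 libraries, with the 12 hepatocyte markers summing to 47827 TPM or more. Whether fewer cells or less RNA per cell lay behind a difference cannot be told apart in bulk tissue, and this holds for every value below.

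AHR is a ligand-activated transcription factor that waits in the cytosol with HSP90 and co-chaperones. Planar aromatic pollutants, plant indoles and products of tryptophan breakdown bind it, after which it enters the nucleus, pairs with ARNT and switches on CYP1A1, CYP1A2, CYP1B1, AHRR, TIPARP and, together with NRF2, NQO1. AHRR and TIPARP act back on the receptor as brakes. In mammalian liver CYP1A2 is made constitutively by hepatocytes around the central vein, whereas CYP1A1 is known chiefly as an inducible enzyme.

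CYP1A2 was the member that fell in the ASGR1+/- livers. Its fitted level in S04 and S05 was 8.04-fold lower than in WT livers. CYP1A1 and NQO1 were also lower in both S04 and S05 than in any WT liver, but with a wide spread among WT animals, and both passed across all genes with DESeq2 but not with edgeR, the main test. The receptor AHR overlapped between the groups, its partner ARNT was below WT in S04 and S05 and likewise passed with DESeq2 only, and the feedback gene AHRR was close to undetected in all 6 livers.

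CYP1A2 encodes the cytochrome P450 that oxidizes caffeine and aromatic amines and is one of the major P450 enzymes of liver. The gene (ID 100152910) spans 58779529 to 58786155 on chromosome 7 of Sscrofa11.1. Its level was 48.1 TPM in S04, 50.5 TPM in S05 and, apart from them, 86.5 TPM in S03, against 282, 358 and 445 TPM in WT1, WT2 and WT3. S03 was above the other ASGR1+/- livers and below every WT liver. The ASGR1+/- and WT levels therefore did not overlap, with or without S03. The mean was 49.3 ± 1.71 TPM in S04 and S05 (SD, n = 2) and 361 ± 81.4 TPM in WT (SD, n = 3). Relative to WT, the fitted log2 fold change in S04 and S05 was -3.01 (standard error 0.35, adjusted p = 0.031 from edgeR's quasi-likelihood test with Benjamini-Hochberg adjustment over 13401 genes). DESeq2, the tool of the study, gave an adjusted p of 3.16e-17. With S03 included the log2 fold change was -2.75 (standard error 0.33, edgeR adjusted p = 0.0484).

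Placed among all genes of each library, CYP1A2 had rank 1941 by TPM in S04, rank 1897 in S05 and rank 1216 in S03, against 435, 349 and 281 in WT1, WT2 and WT3. S03 stood between the other ASGR1+/- livers and WT. By p it was number 24 of the 13401 genes tested, and 66 of them, CYP1A2 included, had a log2 fold change at least as low.

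The call for CYP1A2 did not survive the loss of certain single animals. Its edgeR adjusted p was 0.0807 without S04, 0.150 without S05 and 0.0969 without WT2, while the log2 fold change stayed between -3.21 and -2.72 over the 5 fits that each left out 1 library. Calls across all genes dropped in the same fits, to 2 without S04, 0 without S05 and 5 without WT2, against 106 with all 5 libraries. Without S05, 1770 genes had an unadjusted p below 0.05.

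CYP1A1 encodes the inducible P450 that oxidizes polycyclic aromatic hydrocarbons. The gene (ID 403103) lies at 58802887 to 58809155 on chromosome 7, with 16731 bases between it and CYP1A2. Its level was 10.02 TPM in S04, 9.50 TPM in S05 and 4.63 TPM in S03, against 29.4, 51.9 and 190.2 TPM in WT1, WT2 and WT3. S03 was the lowest of the 6. The 3 ASGR1+/- livers were thus all below the 3 WT livers. The means were 9.76 ± 0.368 TPM in S04 and S05 (SD, n = 2) and 90.5 ± 87.1 TPM in WT (SD, n = 3), so that the WT spread was nearly as large as the WT mean. The highest WT level was 6.48 times the lowest, a ratio exceeded by 1.80% of the genes tested, against a median ratio of 1.47. With this spread the log2 fold change of -3.42 (standard error 0.92) gave an edgeR adjusted p of 0.112, and DESeq2 gave 0.0228. Much of its size came from WT3. Without WT3 the log2 fold change was -2.07 (edgeR adjusted p = 0.0579).

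**Figure D1:**
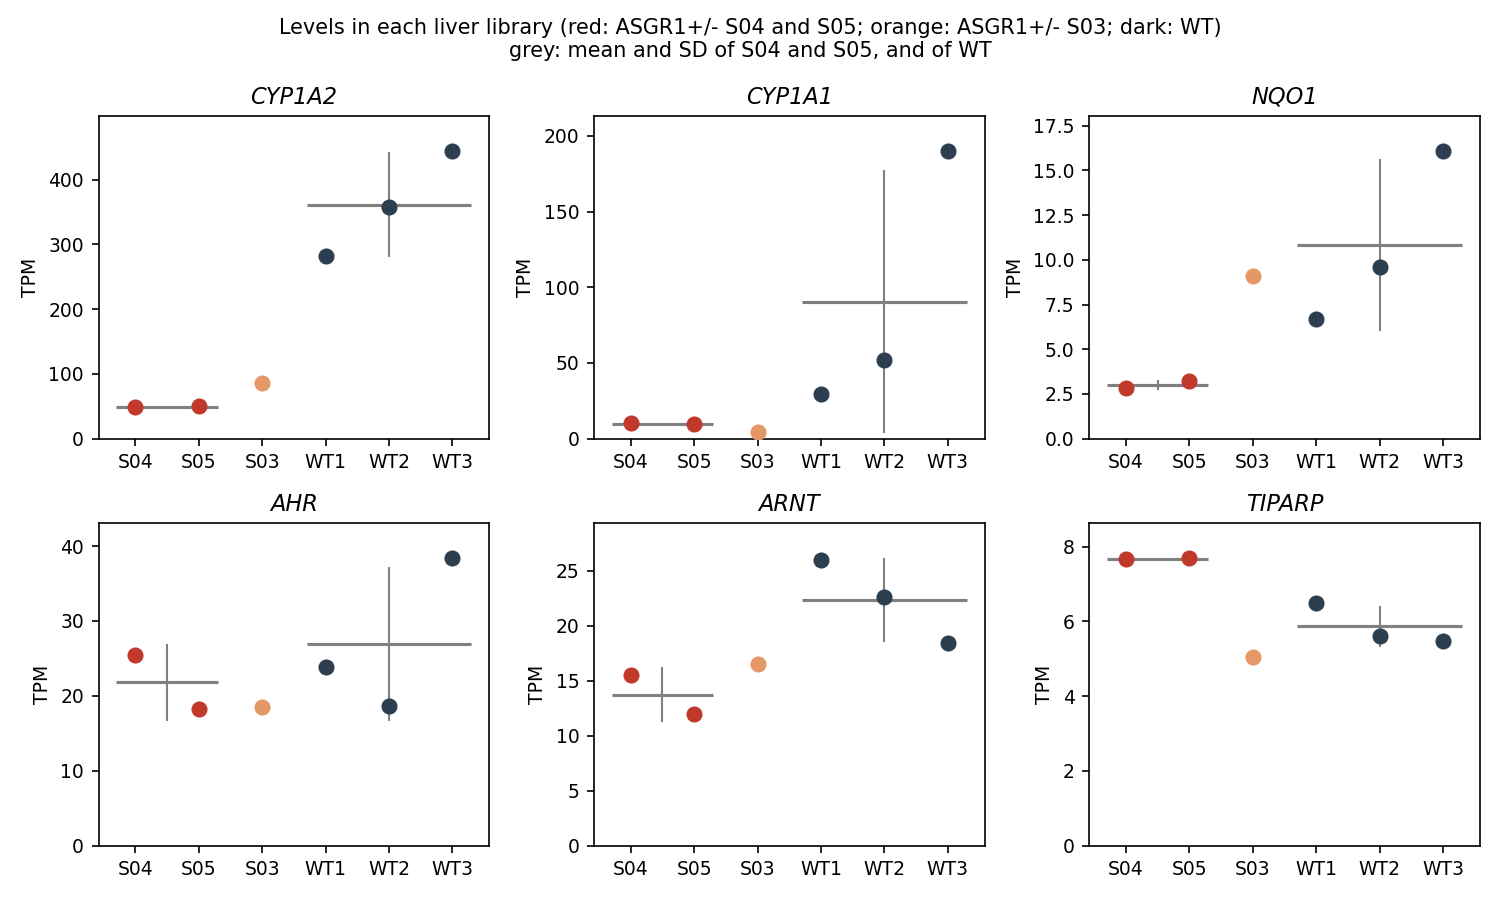
TPM of the 6 members that passed the filter on low counts, 1 point per liver library, with ASGR1+/- S04 and S05 in red, ASGR1+/- S03 in orange and WT in dark blue. Grey bars give the mean and SD of S04 and S05 (n = 2) and of WT (n = 3). CYP1A2 and CYP1A1 are lower in all 3 ASGR1+/- livers than in any WT liver, NQO1 only in S04 and S05, and AHR overlaps.

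CYP1A1 and CYP1A2 are neighbouring paralogs with similar coding sequences, and the deposited counts show that their reads were shared out. In each of the 6 libraries neither gene had a whole estimated count, but the counts of both together were whole to within 0.011. These sums were 1327 for S04, 1269 for S05 and 1878 for S03, against 6529, 8421 and 15245 in WT1, WT2 and WT3. How much of the sum was given to CYP1A1 varied widely, at 22.3% for S04, 20.3% for S05 and 6.79% for S03, against 12.4%, 16.3% and 36.8% in WT1, WT2 and WT3. The split between both genes is therefore less certain than their sum, although shared reads do not say how far it is off.

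Tested as 1 row, CYP1A1 plus CYP1A2 fell by 3.10 on the log2 scale in S04 and S05 (standard error 0.47, edgeR adjusted p = 0.0463, DESeq2 adjusted p = 4.43e-11), a fold of 8.60. The call was lost with S03 included, at a log2 fold change of -2.95 (edgeR adjusted p = 0.0587). It was lost as well without S04, S05 or WT2, with edgeR adjusted p of 0.120, 0.214 and 0.122. The direction held in each of these fits, and the sum in every ASGR1+/- library was below that in every WT library.

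The balance of both enzymes overlapped between the groups. CYP1A2 exceeded CYP1A1 by a TPM ratio of 4.80 for S04, 5.32 for S05 and 18.7 for S03, against 9.60, 6.89 and 2.34 in WT1, WT2 and WT3. The ratios of S04 and S05 lay inside the WT range and that of S03 above it.

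**Figure D2:**
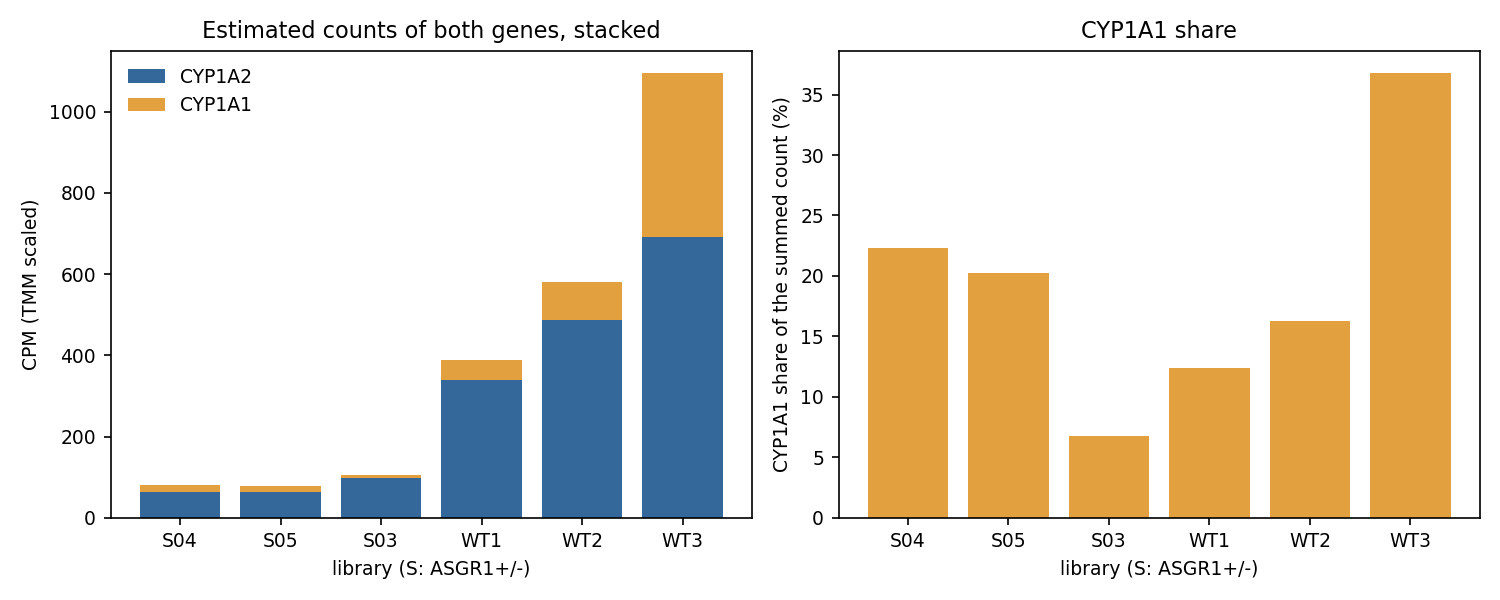
Left, estimated counts of CYP1A2 (blue) and CYP1A1 (orange) stacked for each liver library, in CPM scaled by TMM. Right, the percent of the summed estimated count that was given to CYP1A1, which runs from 6.79% in S03 to 36.8% in WT3, while the sum is lower in the 3 ASGR1+/- libraries than in the 3 WT libraries.

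NQO1 encodes a quinone reductase that is a target of both AHR and the oxidant sensor NRF2. The gene (ID 100286873) lies at 17292962 to 17302593 on chromosome 6. It was listed at 2.82 TPM in S04, 3.20 TPM in S05 and 9.10 TPM in S03, against 6.70, 9.62 and 16.1 TPM in WT1, WT2 and WT3. S04 and S05 were below every WT liver and S03 was within the WT range. In this NQO1 differed from CYP1A1 and CYP1A2, whose levels in S03 were below every WT liver. Its estimated counts were modest, 48 in S04 and 51 in S05 against 108, 151 and 278 in WT1, WT2 and WT3. Its log2 fold change relative to WT was -2.00 in S04 and S05 (standard error 0.50, edgeR adjusted p = 0.0976, DESeq2 adjusted p = 0.00236). With S03 it was -1.34 (edgeR adjusted p = 0.281), and without WT3 it was -1.46 (edgeR adjusted p = 0.103).

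AHR itself (ID 396654, chromosome 9, 86511866 to 86555950) was listed at 25.4 TPM in S04, 18.2 TPM in S05 and 18.5 TPM in S03, against 23.8, 18.7 and 38.4 TPM in WT1, WT2 and WT3. The groups overlapped, with a log2 fold change of -0.44 (standard error 0.40, edgeR adjusted p = 0.577) that rested on WT3 and was 0.049 without it. Among the WT livers the receptor was highest in WT3, as were CYP1A1, CYP1A2 and NQO1.

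ARNT, the obligate partner of AHR and also of the hypoxia factor HIF1A, lies at 98333431 to 98390012 on chromosome 4 (ID 396653). It was listed at 15.5 TPM in S04, 11.95 TPM in S05 and 16.6 TPM in S03, against 26.0, 22.7 and 18.4 TPM in WT1, WT2 and WT3. All 3 ASGR1+/- livers were thus below all 3 WT livers, though S03 was near WT3. The log2 fold change was -0.77 (standard error 0.19, edgeR adjusted p = 0.0959, DESeq2 adjusted p = 0.0198). ARNT shared reads with its neighbour CTSK, whose annotated span overlaps that of ARNT by 554 bases. Their summed counts were whole in 6 of 6 libraries, and ARNT was given 53.0% to 58.3% of each sum.

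TIPARP encodes a mono-ADP-ribosyltransferase that is induced by AHR and in turn limits it (ID 100626111, chromosome 13, 96496386 to 96524879). It was listed at 7.66 TPM in S04, 7.69 TPM in S05 and 5.05 TPM in S03, against 6.50, 5.62 and 5.48 TPM in WT1, WT2 and WT3. S04 and S05 were above every WT liver, but S03 was below them all. The difference was small, a log2 fold change of 0.29 (standard error 0.17, edgeR adjusted p = 0.367), and with S03 it was 0.08 (edgeR adjusted p = 0.898).

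AHRR, the repressor that competes with AHR for ARNT, is at 79730920 to 79810183 on chromosome 16 (ID 100624847). Only 2 counts were given to it in S04, 3 counts in S05 and 2 counts in S03, against 2, 5 and 2 in WT1, WT2 and WT3. Pooled, these were 5 counts in S04 and S05 (exact 95% Poisson interval 1.62 to 11.7) and 9 in the 3 WT libraries (4.12 to 17.1), intervals that cover counting error only. AHRR did not pass the filter on low counts and was not tested in the main edgeR fit. DESeq2 gave it a log2 fold change of -0.38 (standard error 1.42, unadjusted p = 0.790) and no adjusted p, and a difference was not detectable at this depth.

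Within each library CYP1A2 was the highest member by TPM and AHRR the lowest. CYP1A1 changed its place in the order, as it ranked 4 of 7 in S04 and S05 and 6 of 7 in S03, but 2 of 7 in each WT liver. In S04 and S05, AHR and ARNT stood above it, in contrast to WT1, WT2 and WT3. NQO1 and TIPARP changed places too, with TIPARP above NQO1 in S04 and S05 but below it in S03 and in each WT liver. AHR and ARNT exchanged places within the WT group, and the TPM ratio of AHR to ARNT was 1.64 in S04 and 1.52 in S05, against 0.915, 0.823 and 2.09 in WT1, WT2 and WT3. AHR was thus above ARNT in every ASGR1+/- liver and, among the WT livers, in WT3 only. The ASGR1+/- ratios lay inside the WT range, and AHR was not tested against ARNT.

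Of the 7 members in the table, 6 passed the filter on low counts and were tested, and edgeR called 1 of them, CYP1A2, in each comparison. Of all genes tested, edgeR called 0.791% without S03 and 0.136% with it. An unadjusted p under 0.05 was reached by 4 members in each comparison, CYP1A1, CYP1A2, ARNT and NQO1, all of them lower, beside 20.9% of all genes tested without S03 and 16.1% with it. DESeq2 called the same 4 members lower, beside 6.3% of the 13663 genes to which it gave an adjusted p. With all 6 libraries it called 3 of them, not NQO1, beside 3.91% of 14444 such genes. In TPM and in CPM, the levels of S04 and S05 lay wholly below those of WT for these 4 members and wholly above for TIPARP. By CPM over all genes tested, 20.1% lay wholly below and 19.0% wholly above. With S03 the 3 genes CYP1A1, CYP1A2 and ARNT lay wholly below, beside 11.8% of all genes tested. The median log2 fold change of the 6 members was -1.39 in the comparison without S03, against 0.0031 over all genes tested.

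**Figure D3:**
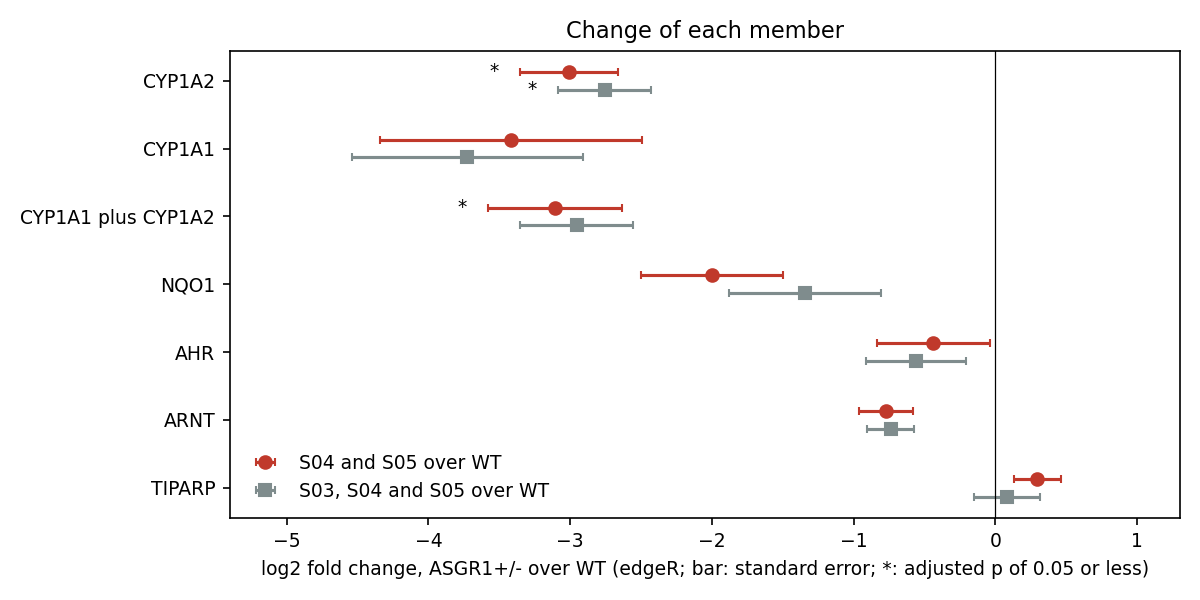
Log2 fold change of ASGR1+/- over WT from edgeR for each member tested and for the summed counts of CYP1A1 and CYP1A2, with S04 and S05 (red circles) and with all 3 ASGR1+/- libraries (grey squares), bars giving the standard error and asterisks an adjusted p of 0.05 or less. CYP1A2 passes in both comparisons, at -3.01 and -2.75, and NQO1 has the largest shift of the 6 members toward 0 with S03, at -2.00 without it and -1.34 with it.

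The receptor's chaperones, coactivators and corepressors came next. The counts for this list and those after it stand beside 20.9% of all genes tested with an unadjusted p under 0.05 in either direction. DESeq2 called 1307 of the 13663 genes to which it gave an adjusted p, 861 of them (6.3%) lower. Of 11 tested genes of the AHR complex and its partners, edgeR called 0, 0 passed an unadjusted p under 0.05 and DESeq2 called 0, with a median log2 fold change of 0.21. The log2 fold change was positive for 9 of them and negative for 2. The list summed to 1020 to 1467 TPM in S04 and S05 and 1831 TPM in S03, against 663 to 1014 TPM in WT. The largest parts were HSP90AA1 (log2 fold change 0.47, edgeR adjusted p = 0.442) and HSP90AB1 (0.50, edgeR adjusted p = 0.316). ARNT2, a paralog of ARNT, did not pass the filter on low counts and DESeq2 called it higher (adjusted p = 0.0374), at 0.07 and 0.53 TPM in S04 and S05 and 0.01 TPM in S03, against 0.03, 0 and 0.06 TPM in WT1, WT2 and WT3. Nearest to the threshold was NRIP1, a corepressor of nuclear receptors, at 5.12 and 7.74 TPM in S04 and S05 and 4.15 TPM in S03, against 3.81, 3.30 and 4.44 TPM in WT1, WT2 and WT3 (edgeR adjusted p = 0.241). PTGES3, the p23 co-chaperone of the cytosolic complex, had 182 and 132 TPM in S04 and S05 and 183 TPM in S03, against 126, 106 and 96.0 TPM in WT1, WT2 and WT3 (edgeR adjusted p = 0.286). For both genes S04 and S05 lay above the WT livers, but S03 did so for PTGES3 only. The log2 fold change of NRIP1 was 0.59, 0.38 with S03 and 0.37 without S05, and that of PTGES3 was 0.44, and 0.14 without S04.

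Other known AHR targets went in both directions. Of 7 tested, 3 had a positive and 4 a negative log2 fold change. Of these 7, edgeR called 0, while with an unadjusted p below 0.05 there were 1 higher and 2 lower, and DESeq2 called 1 lower. The higher gene was the scarce cytokine gene IL1B, at 1.13 TPM in S04 and in S05 and 0.95 TPM in S03. Its WT levels were 0.52, 0.46 and 0.14 TPM in WT1, WT2 and WT3 (edgeR adjusted p = 0.193). GSTA1, a glutathione transferase abundant in hepatocytes, had 1570 and 934 TPM in S04 and S05 and 1025 TPM in S03, against 2590, 2309 and 4410 TPM in WT1, WT2 and WT3 (log2 fold change -1.45, edgeR adjusted p = 0.148, and -0.96 without WT3). Like CYP1A2, GSTA1 was lower in all 3 ASGR1+/- livers than in any WT liver. ALDH3A1, an aldehyde dehydrogenase that responds strongly to AHR ligands in rodents, was scarce, with 0.07 and 0.03 TPM in S04 and S05 and 0.53 TPM in S03, against 0.52, 0.46 and 0.12 TPM in WT1, WT2 and WT3 (edgeR adjusted p = 0.136).

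P450 enzymes need heme and electrons from the reductase POR. Of 11 tested genes of heme synthesis, heme breakdown and electron supply, edgeR called 0, while 2 were lower with an unadjusted p below 0.05 and DESeq2 called 1 lower. That gene was ALAD, the second enzyme of heme synthesis, at 76.7 and 66.9 TPM in S04 and S05 and 98.6 TPM in S03, against 163, 153 and 119 TPM in WT1, WT2 and WT3. Its log2 fold change was -1.10 (edgeR adjusted p = 0.0503), just outside the threshold, and the edgeR adjusted p was 0.0479 without the filter on low counts. CPOX, a later enzyme of the same pathway, had a log2 fold change of -0.54 (edgeR adjusted p = 0.196).

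Tryptophan breakdown through TDO2, IDO1 and the enzymes after them makes kynurenine and related AHR ligands. Of 10 tested genes edgeR called 0, with 1 higher and 3 lower with an unadjusted p below 0.05, and DESeq2 called 1 in each direction. IDO1, the interferon-inducible first enzyme, had 65.8 and 35.6 TPM in S04 and S05 and 23.0 TPM in S03, against 29.9, 7.37 and 5.43 TPM in WT1, WT2 and WT3 (log2 fold change 1.83, edgeR adjusted p = 0.167). S03 was within the WT range, and the log2 fold change moved to 2.82 without WT1 and 1.27 without S04. HAAO, which acts later in the kynurenine pathway, had 111 and 99.5 TPM in S04 and S05 and 136 TPM in S03, against 197, 218 and 131 TPM in WT1, WT2 and WT3 (log2 fold change -0.87, edgeR adjusted p = 0.098).

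NQO1 was also set beside 16 other genes that NRF2 controls, of which edgeR called 0 and DESeq2 0, with 2 higher and 1 lower with an unadjusted p below 0.05 and a median log2 fold change of -0.15. GCLC, the catalytic subunit for glutathione synthesis, had 39.3 and 22.6 TPM in S04 and S05 and 52.4 TPM in S03, within the WT range, against 82.1, 51.1 and 43.2 TPM in WT1, WT2 and WT3 (log2 fold change -0.98, edgeR adjusted p = 0.156). SRXN1, which repairs peroxiredoxins, had 4.94 and 8.67 TPM in S04 and S05 and 5.60 TPM in S03, against 4.56, 3.59 and 3.23 TPM in WT1, WT2 and WT3 (log2 fold change 0.75, edgeR adjusted p = 0.191). GCLC and SRXN1, nearest to the threshold in this list, thus had opposite signs, and both values leaned on S05, without which they were -0.59 for GCLC and 0.35 for SRXN1. Without S04 that of GCLC was -1.49.

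**Figure D4:**
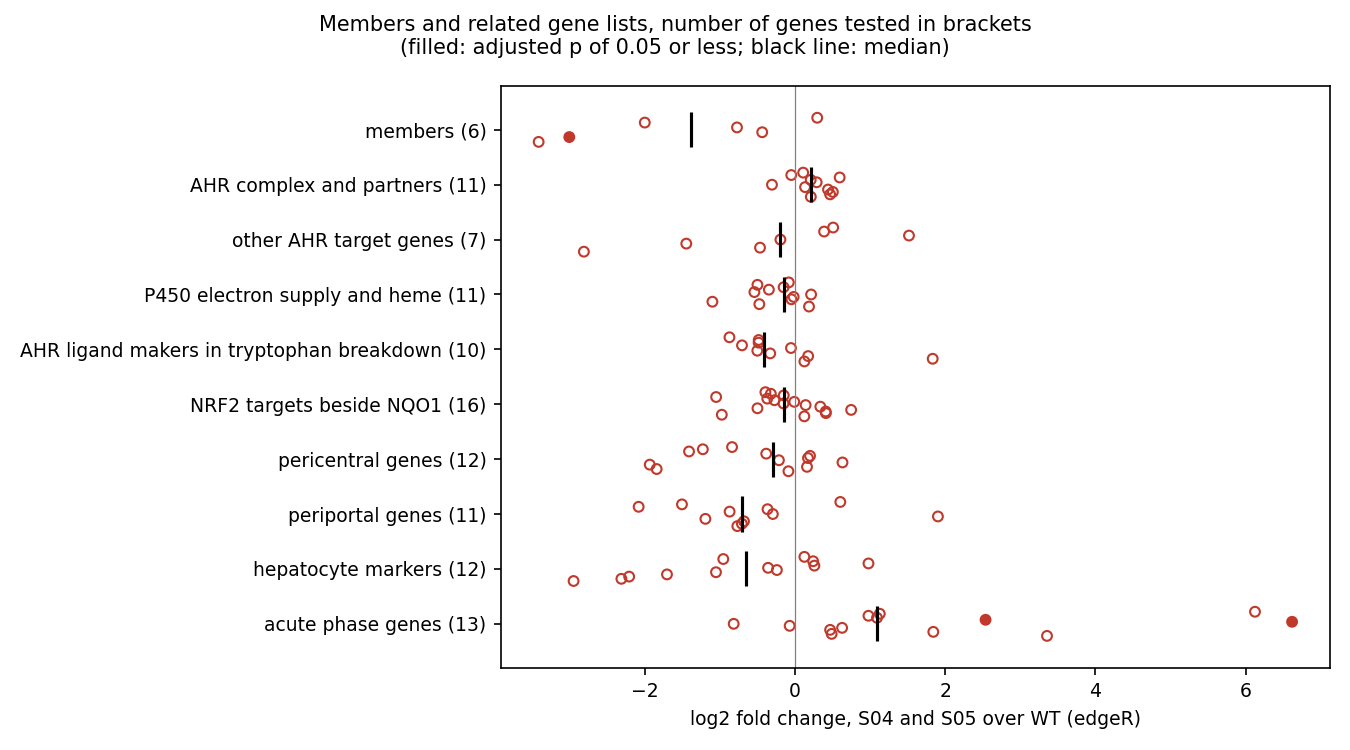
Log2 fold change from edgeR (S04 and S05 relative to WT) for the members and for 9 related gene lists, 1 point per gene tested, filled where the adjusted p was 0.05 or less, with the median of each list as a black line. The members have a median of -1.39, the AHR complex and its partners a median of 0.21 with no gene called, and the acute phase genes a median of 1.09 with 2 genes called.

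Other features of these livers also differed between WT and S04 and S05, and whether they bear on CYP1A2 was not tested. The acute phase genes, hepatic genes that respond to inflammatory cytokines, summed to 144894 and 173506 TPM in S04 and S05, against 79381 to 81492 TPM in WT. Of 13 tested, 2 rose, namely LCN2 (log2 fold change 6.62, edgeR adjusted p = 0.0085) and ITIH4 (2.54, edgeR adjusted p = 0.0398). At an unadjusted edgeR p below 0.05 there were 8 higher and 1 lower, ORM1, beside 20.9% of all genes tested in either direction. DESeq2 called 8 higher and 1 lower. Over all genes, DESeq2 called 1307 of the 13663 to which it gave an adjusted p, 861 of them lower. With S03 included, the same unadjusted threshold gave 4 higher and 1 lower, beside 16.1% of all genes tested. LCN2, an iron-binding protein of the innate defence, had 198 and 319 TPM in S04 and S05, against 4.27, 1.62 and 1.58 TPM in WT1, WT2 and WT3. In S03 the acute phase sum was 88307 TPM and LCN2 was at 7.22 TPM, both above the WT range and below S04 and S05. CYP1A2 was below every WT liver in S03, and a link to these genes was not tested. Both calls were lost with S03 included (edgeR adjusted p = 0.0964 and 0.154) and without S05 (0.0784 and 0.166), and that of ITIH4 also without S04, WT2 or WT3 (0.0773, 0.129 and 0.055).

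Genes of the pericentral zone, in which CYP1A2 is normally made, summed to 1179 and 1437 TPM in S04 and S05, against 2401 to 3900 TPM in WT. Most of this was CYP2E1, another pericentral P450, with 802 and 738 TPM in S04 and S05, against 3155, 1670 and 2914 TPM in WT1, WT2 and WT3 (log2 fold change -1.84, edgeR adjusted p = 0.0633). In S03, CYP2E1 was within the WT range at 1977 TPM, as was the pericentral sum at 2428 TPM. CYP1A2 was below its WT range in S03, and a link to the pericentral genes was not tested. LHPP had a log2 fold change of -0.84 (edgeR adjusted p = 0.0804). Of the 12 pericentral genes edgeR called 0, with 5 lower and 1 higher with an unadjusted p below 0.05, and DESeq2 called 5 lower. Over all genes tested, 20.9% had such an unadjusted p in either direction. Of the genes to which DESeq2 gave an adjusted p, it called 6.3% lower. The list had 8 negative and 4 positive log2 fold changes, with a median of -0.30. The higher gene was RNF43 (0.63), and GLUL had a log2 fold change of -0.09. The 11 periportal genes gave a like picture, with 0 called by edgeR, 4 lower and 1 higher with an unadjusted p below 0.05, the same counts from DESeq2, and a median log2 fold change of -0.71. ALDH1B1 (-2.08, edgeR adjusted p = 0.0607) and HSD17B13 (-1.51, edgeR adjusted p = 0.073) were nearest to the threshold there.

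The hepatocyte markers summed to 47827 and 57272 TPM in S04 and S05 and to 68232 TPM in S03, against 73494 to 138092 TPM in WT. No marker of this list was at 0 in any library. ALB, the albumin gene, had 6928 and 10070 TPM in S04 and S05 and 24963 TPM in S03, against 27908, 74676 and 73935 TPM in WT1, WT2 and WT3. HNF4A, the transcription factor of hepatocyte identity, was at 102 and 164 TPM in S04 and S05, against 96.9, 99.1 and 96.7 TPM in WT1, WT2 and WT3. In S03 it was at 89.3 TPM, below every WT liver. Its log2 fold change was 0.26 (edgeR adjusted p = 0.574), and 0.05 with S03. Of the 12 markers, 8 had a negative and 4 a positive log2 fold change. Of the 12, edgeR called 0, with 5 lower and 1 higher with an unadjusted p below 0.05 and the same counts from DESeq2. Over all genes tested, 20.9% had such an unadjusted p in either direction, and of those with a DESeq2 adjusted p 6.3% were called lower. TTR (log2 fold change -2.21, edgeR adjusted p = 0.0608) and TF (-2.31, edgeR adjusted p = 0.0695) were nearest to the threshold. FGB, TDO2 and HMOX1 each stand in more than 1 of the lists.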

How the data were processed

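Liver RNA of 3 ASGR1+/- and 3 WT pigs was sequenced on the BGISEQ platform, and libraries were grouped by the genotype in their labels. The authors used SOAPnuke for trimming, HISAT for alignment to the genome and Bowtie2 for alignment to reference genes. The submitters' processing notes name HISAT2 2.0.4, Bowtie2 and Sscrofa11.1. The deposited table gives an estimated count per gene and library, not normalized, made with a tool not given in the sources used here. It also gives the FPKM and the TPM that the authors computed, and the FPKM and the authors' group averages were not used. Of the estimated counts, 12.0% were not whole, and counts were rounded for the tests.

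The main test was edgeR 4.0.16 (quasi-likelihood) in R 4.3.3, with TMM scaling, filterByExpr (minimum count 10) and Benjamini-Hochberg adjustment over 13401 genes (13243 with S03), called at an adjusted p of 0.05 or less. Each standard error is the absolute log2 fold change divided by the root of its F statistic. TPM are as deposited, and TPM means carry the SD between animals. CPM are counts scaled to the library total after TMM. Library totals were 15397768 to 16237732. The p-values weigh the group difference against the spread between these animals, which the fits estimate in part from other genes. DESeq2 1.42.0 with its own size factors, limma 3.58.1 on log2(TPM + 1) and log2(TPM + 0.1), other scalings and filters, unrounded counts and leaving out each library were alternatives. The fits were also run on simulated counts drawn with the spread of the WT livers, and no result here rests on that run.

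The members and the 17 gene lists were chosen with earlier results of these data known. The lists hold 163 genes of the table, 155 of them tested, and were described by counts and medians, with no set test. They cover the AHR complex, other AHR targets, P450 electron supply and heme, tryptophan breakdown, NRF2 targets, pericentral, periportal, acute phase and Y-linked genes, and markers of hepatocytes, stellate cells, macrophages, endothelium, cholangiocytes, lymphocytes, neutrophils and erythroid cells. Genes named are all members, the list genes that edgeR called or, in lists with fewer than 2 of these, those with the smallest p up to 2, and the 3 genes most like each member tested. Results of HNF4A, ALB, HSP90AA1, HSP90AB1, ARNT2, IL1B, ORM1, RNF43 and GLUL were given outside this rule, after their values were seen. All 17109 genes matched the RefSeq table of Sscrofa11.1 by gene ID.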

Additional observations from a re-analysis of the deposited data

How the results depend on the processing

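CYP1A2 kept its direction in every fit, and for S04 and S05 against WT it kept its call under all alternatives other than leaving out S04, S05 or WT2. With all 6 libraries its call was lost with library totals only (adjusted p = 0.0751), with limma on log2(TPM + 1) without a filter (0.107) and without S04, S05, WT1, WT2 or WT3 in turn. The number of members called for S04 and S05 against WT was 1, but 4 with DESeq2 and 0 to 1 leaving out each library. With all 6 libraries it was 1, but 3 with DESeq2, 0 with library totals only, 0 with limma without a filter and 0 to 1 leaving out each library. For CYP1A1 plus CYP1A2 the call was lost with S03 (-2.95) and with limma without a filter (-2.85), and leaving out each library gave -3.37 to -2.60 (edgeR adjusted p 0.0218 to 0.214). List genes called numbered 3, but 44 with DESeq2, 15 and 13 with limma on log2(TPM + 0.1) and log2(TPM + 1), 1 with limma without a filter, 1 with S03 and 0 to 6 leaving out each library.

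Directions turned for AHR without WT3 and CFTR without S05, with a leave-one-out range of -0.75 to 0.049 for AHR and of -0.23 to 1.705 for CFTR. With S03 they turned for HBB (0.80), ALAS2 (0.70) and EIF1AY (-0.49). In the fit of all 6 libraries TIPARP turned without S04 (-0.0653) and without S05 (-0.0019), in a leave-one-out range up to 0.29. Of the other single gene values under alternatives, 556 kept their direction and side of the threshold, 43 newly passed it and 22 lost it. The causes were not tested. Scaling by library totals only moved the median log2 fold change of all genes to 0.105 without S03 and 0.183 with it.

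Fits without S04 or S05 leave 1 ASGR1+/- animal, assumed to vary like WT. No paired analysis was possible because the groups share only the number 3 in the labels, and S03 is kept apart. The spread between animals, and for AHRR its few counts, limit precision. Whether S03's sex, its erythroid RNA or both bear on its values was not tested.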

Other observations

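Blood and non-parenchymal markers also differed between the livers. Beside the counts below, 20.9% of all genes tested had an unadjusted p under 0.05 without S03 and 16.1% with it. Of the genes to which DESeq2 gave an adjusted p, it called 6.3% lower without S03 and 3.91% with it. Without S03 it called 1307 of these 13663 genes in either direction, 861 of them lower. Erythroid markers summed to 19.1 and 111 TPM in S04 and S05 and to 5227 TPM in S03, against 456 to 1221 TPM in WT. HBB, a hemoglobin chain, had 16.6 and 107 TPM in S04 and S05, against 973, 445 and 1198 TPM in WT1, WT2 and WT3 (edgeR adjusted p = 0.0753). ALAS2, the erythroid form of the first enzyme of heme synthesis, had an edgeR adjusted p of 0.0941. Of 6 erythroid markers edgeR called 0, with 5 lower with an unadjusted p below 0.05 and 3 lower by DESeq2, while with S03 included 1 was lower by either measure. Among 7 lymphocyte markers 1 fell, the natural killer cell receptor KLRD1, at 0.13 and 0.07 TPM in S04 and S05 against 2.36, 1.92 and 1.94 TPM in WT1, WT2 and WT3 (edgeR adjusted p = 0.0149). That call was lost without S04, S05 or WT2 (edgeR adjusted p 0.0531, 0.116 and 0.0612). The fold changes of all 7 were negative (median log2 fold change -0.97), 4 of them with an unadjusted p below 0.05, and DESeq2 called 2 lower. CD8A had a log2 fold change of -1.44 (edgeR adjusted p = 0.112).

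In the other cell type lists edgeR called 0 genes. Of 5 neutrophil markers, 3 were higher with an unadjusted p below 0.05 and 2 by DESeq2, with a median log2 fold change of 1.37. S100A8 had 15.4 and 20.6 TPM in S04 and S05 against 2.54, 2.99 and 3.55 TPM in WT1, WT2 and WT3 (edgeR adjusted p = 0.0753), and CSF3R had an edgeR adjusted p of 0.074. Of 10 macrophage markers 9 had a negative log2 fold change, 2 of them, MARCO and C1QA, with an unadjusted p below 0.05, and DESeq2 called 1. Of 9 endothelial markers 4 were lower and 1 higher at an unadjusted p below 0.05 (DESeq2 3 and 1), but with S03 included 0 were lower and 1 higher. CLEC4G had 36.2 and 54.8 TPM in S04 and S05 and 165 TPM in S03, against 98.4, 106 and 67.8 TPM in WT1, WT2 and WT3, and its log2 fold change was -1.04, but -0.23 with S03. That of PECAM1 was -0.61, but -0.23 with S03. Of 12 stellate cell and fibroblast markers 2, RELN and COL3A1, were lower at an unadjusted p below 0.05 (DESeq2 2), and 0 with S03 included, where the median of the list was 0.10 in place of -0.48. The log2 fold change of RELN was -0.78, but -0.11 with S03, and that of COL3A1 was -1.35, but -0.39 with S03. Of 5 cholangiocyte markers 1, KRT19, was higher at an unadjusted p below 0.05 (DESeq2 1), followed by CFTR. The Y-linked list had 1 gene tested, EIF1AY, at 55.3 and 53.5 TPM in S04 and S05 and 0.07 TPM in S03, against 50.6, 48.3 and 40.8 TPM in WT1, WT2 and WT3.

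The genes whose pattern over the 6 livers came nearest to each member were found by the root mean square difference of centred log2 CPM, a description over 6 libraries that share the group difference. Nearest to CYP1A2 were LOC100153094 (0.257), FAM83D (0.260) and LOC100624788 (0.265), against a spread of CYP1A2 itself of 1.41. LOC100153094, annotated with the synonym GSTT1, had 5.30 and 8.23 TPM in S04 and S05 and 8.18 TPM in S03, against 38.4, 36.6 and 55.1 TPM in WT1, WT2 and WT3. CYP1A1 had no such close match, its nearest being CBR3 (0.605), CYP2C32 (0.625) and LOC100515394 (0.669) against its own spread of 1.90. CYP2C32, a P450 of another family, had 16 and 25.7 TPM in S04 and S05 and 17.5 TPM in S03, against 144, 262 and 395 TPM in WT1, WT2 and WT3.

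The nearest genes of the other members were MORC4, BRIP1 and CLDN12 for AHR, SLC41A2, C2H11orf95 and MTHFD1 for ARNT, SUSD2, ACAD8 and BICD1 for NQO1, and ATP6V1D, NFKBIB and ENSA for TIPARP. Between members, the difference was 0.918 for CYP1A1 and CYP1A2, 0.758 for CYP1A2 and NQO1, and 0.468 for AHR and TIPARP, the smallest of the 15 pairs. The difference is not scaled to how much a gene varies. AHR and TIPARP varied little, with spreads of 0.500 and 0.260, so 0.468 was not a close match for either.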
